A study of Mus musculus with 16 samples.

Results

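The 10 tubulin isotype genes Tubb2a, Tubb2b, Tubb4b, Tubb5, Tubb6, Tuba1a, Tuba1b, Tuba1c, Tuba4a and Tubg1, of 54838 genes counted, were followed in mouse liver after toxic and surgical injury. The set was chosen by name, and with Tubb2a and Tubb2b known to be higher after carbon tetrachloride (CCl4) than after olive oil in these same samples. Values of the CCl4 comparison are therefore given as a description, with no test, and the surgical comparison, which the choice did not use, was tested. All 10 genes were found by symbol.

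Messenger RNA libraries were sequenced from snap-frozen whole liver of 16 male wild-type C57BL/6J mouse samples. In the CCl4 group (n = 3), a 1:1 mixture of CCl4 and olive oil was injected into the peritoneum (2 µL per g of body weight) and liver was taken 3 days later, and the olive oil group (n = 3) received olive oil alone at 2 µL per g and was taken at 3 days. The PH day 3 group (n = 5) was taken 3 days after partial hepatectomy (PH), the surgical removal of part of the liver, and the PH day 0 group (n = 5) was taken at day 0. The labels give neither the animals' ages nor whether the samples of a group came from separate animals, so the p-values speak only to how far these samples scatter, which may be technical.

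Microtubules are hollow polymers of alpha- and beta-tubulin dimers, and gamma-tubulin starts their growth at the centrosome. Mammals carry several genes for alpha- and for beta-tubulin, whose proteins differ most in their acidic tails. In the liver microtubules carry vesicles for secretion of plasma proteins and bile in resting hepatocytes, and they form the spindle when cells divide. Cells also adjust tubulin mRNA to their pool of free tubulin: the start of the newly made tubulin chain is recognised on the ribosome by TTC5, and the mRNA is then degraded.

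The first 30 coding bases are shown because this start encodes the stretch that the autoregulation step reads. The sequences come from the GENCODE M21 transcripts (GRCm38), 5′ to 3′, and the capitals mark the first 12 bases, the first 4 codons.
Tubb2a: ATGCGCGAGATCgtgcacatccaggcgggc
Tubb2b: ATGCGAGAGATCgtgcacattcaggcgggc
Tubb4b: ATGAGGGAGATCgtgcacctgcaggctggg
Tubb5: ATGAGGGAAATCgtgcacatccaggccgga
Tuba1b: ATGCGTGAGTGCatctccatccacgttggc
Tuba4a: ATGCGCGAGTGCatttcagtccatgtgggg
Tubg1: ATGCCGAGAGAAatcatcaccctacagttg
Tuba1a, Tuba1b and Tuba1c, 3 members, shared the same first 12 bases. Among the other genes shown, no pair had the same first 12 bases. The encoded amino acids differed less. Over these 12 bases Tubb2a, Tubb2b, Tubb4b and Tubb5 encode the same amino acids, and Tuba4a encodes the same as the Tuba1 genes. Tubg1 differs from both sets.

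Tubb2a and Tubb2b are a near-identical pair, and their coding ends are shown because the tail is where tubulin isotypes differ most. Over the whole 1338 coding bases 47 differed, which is an identity of 96.49%, and the last 60 bases differed at 3 positions, marked by capitals. Each of the 3 is the last base of its codon and leaves the amino acid unchanged, so the 2 ends encode the same tail.
Tubb2a: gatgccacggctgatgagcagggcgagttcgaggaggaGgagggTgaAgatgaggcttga
Tubb2b: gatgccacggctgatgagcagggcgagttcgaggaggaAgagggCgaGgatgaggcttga
The pair lies on chromosome 13 of GRCm38, on the minus strand. Tubb2a (ENSMUSG00000058672) spans bases 34074274 to 34078007, and Tubb2b (ENSMUSG00000045136) spans bases 34126748 to 34130466, 48.7 kb away. Coding identity between the other beta isotypes, or between one of them and this pair, was much lower, for example 84.6% between Tubb2a and Tubb5.

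Such likeness limits what reads can be assigned, because reads that mapped to more than one place, or lay over more than one gene, were not counted. In Tubb2a, 49.58% of all 50-base windows of the transcript also occurred in another annotated gene, and the shares were 39.33% in Tubb2b and 50.87% in Tubb4b. Tuba1a, Tuba1b and Tuba1c shared 75.54%, 83.06% and 60.99% of their windows, mostly with each other and with annotated copies. In addition, the predicted gene Gm49450, on the same strand, covered 26.23% of the exon bases of Tuba1a and 22.72% of those of Tuba1b, while having 0 counts itself in every sample. By contrast, Tubb5 shared 0.12%, Tubb6 shared 0% and Tuba4a shared 1.11%, so nearly all of their transcript could be counted. Tubg1 shared 14.09%. Levels and shares of the Tuba1 genes, Tubb2a, Tubb2b and Tubb4b are therefore uncertain. The read length is not given in the sources used here, and this check was added after the low Tuba1 counts were seen.

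**Figure D1:**
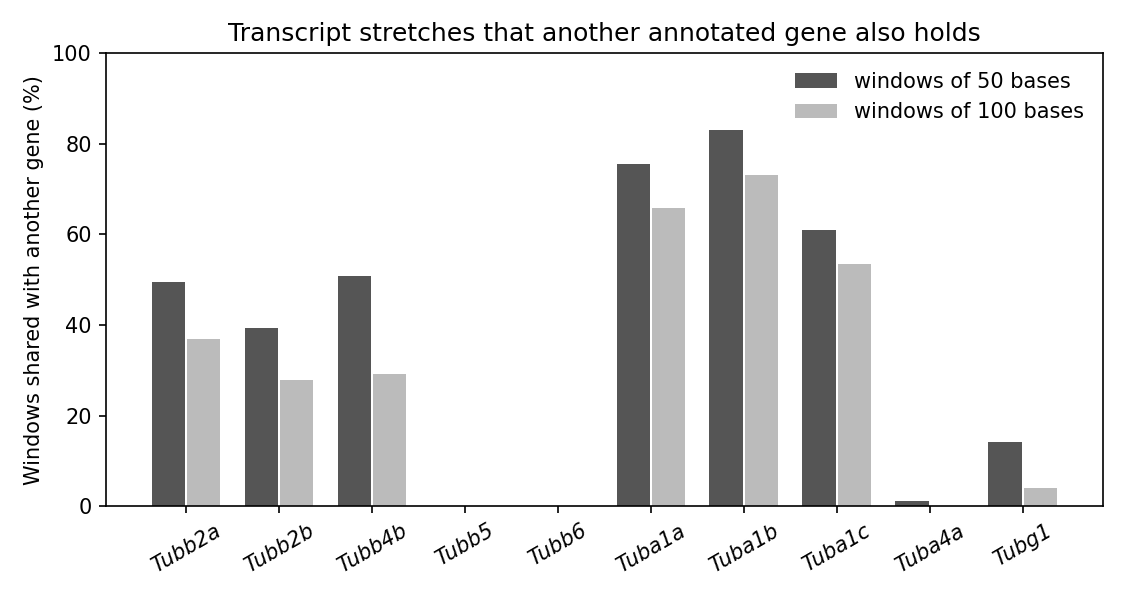
Percentage of each gene's transcript windows (y axis, 0 to 100%) that also occur in another annotated gene, for windows of 50 bases (dark) and 100 bases (light), by gene (x axis). Tuba1b is highest at 83.06% for 50 bases, and Tubb6 is at 0%.

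Total counts per sample were 4738196 to 6218526 in CCl4 livers, 4295169 to 5221957 in olive oil livers, 2795909 to 4391002 in PH day 3 livers and 3271398 to 8647503 in PH day 0 livers. Levels are given in CPM, counts scaled to the library total after TMM adjustment, and 3 counts were worth 0.368 to 1.03 CPM, a limit that covers counting error only. Of the 10546 genes tested after PH, 9.73% were higher and 8.01% lower at an adjusted p under 0.05. Of the 11337 tested after CCl4, 11.3% were higher and 11.6% lower. With library size scaling in place of TMM, higher genes made up 78.9% of the calls after PH, where TMM gave 54.8%, and 87.5% after CCl4, where TMM gave 49.2%. The hepatocyte markers, whose sum is mostly Alb in PH livers, had 91274 to 122514 CPM in sum in CCl4 livers, 107410 to 116817 in olive oil livers, 114884 to 134879 in PH day 3 livers and 82594 to 99700 in PH day 0 livers. Single markers went both ways. Cyp2e1 averaged 499 CPM in CCl4 livers and 7294 CPM in olive oil livers and was called lower, and after PH Alb was called higher and Cyp2e1, Apoa1 and Serpina1a lower. In whole-liver RNA, a change in the number of cells of a type and a change in RNA per cell cannot be told apart.

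After PH, 3 of the 9 tested tubulin genes rose and 1 fell, against the 9.73% and 8.01% of all genes. Tubb6, Tubb5 and Tubb4b, all beta isotypes, rose, and Tuba4a, an alpha isotype, fell. Tubb2a, Tubb2b, Tuba1b, Tuba1c and Tubg1 did not pass the test, and Tuba1a was too low to be tested. After CCl4, the values of 8 of the 10 genes lay above all olive oil values, as did those of 21.4% of all genes in the CCl4 fit, a share that is printed beside the count and not read further, since these values chose the set. Tuba4a and Tubg1 overlapped between CCl4 and olive oil livers. The median log2 fold change of the 9 fitted genes was 0.22 after PH, where that of all genes tested was -0.01, and 2.21 after CCl4, where that of all genes was 0.01.

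**Figure D2:**
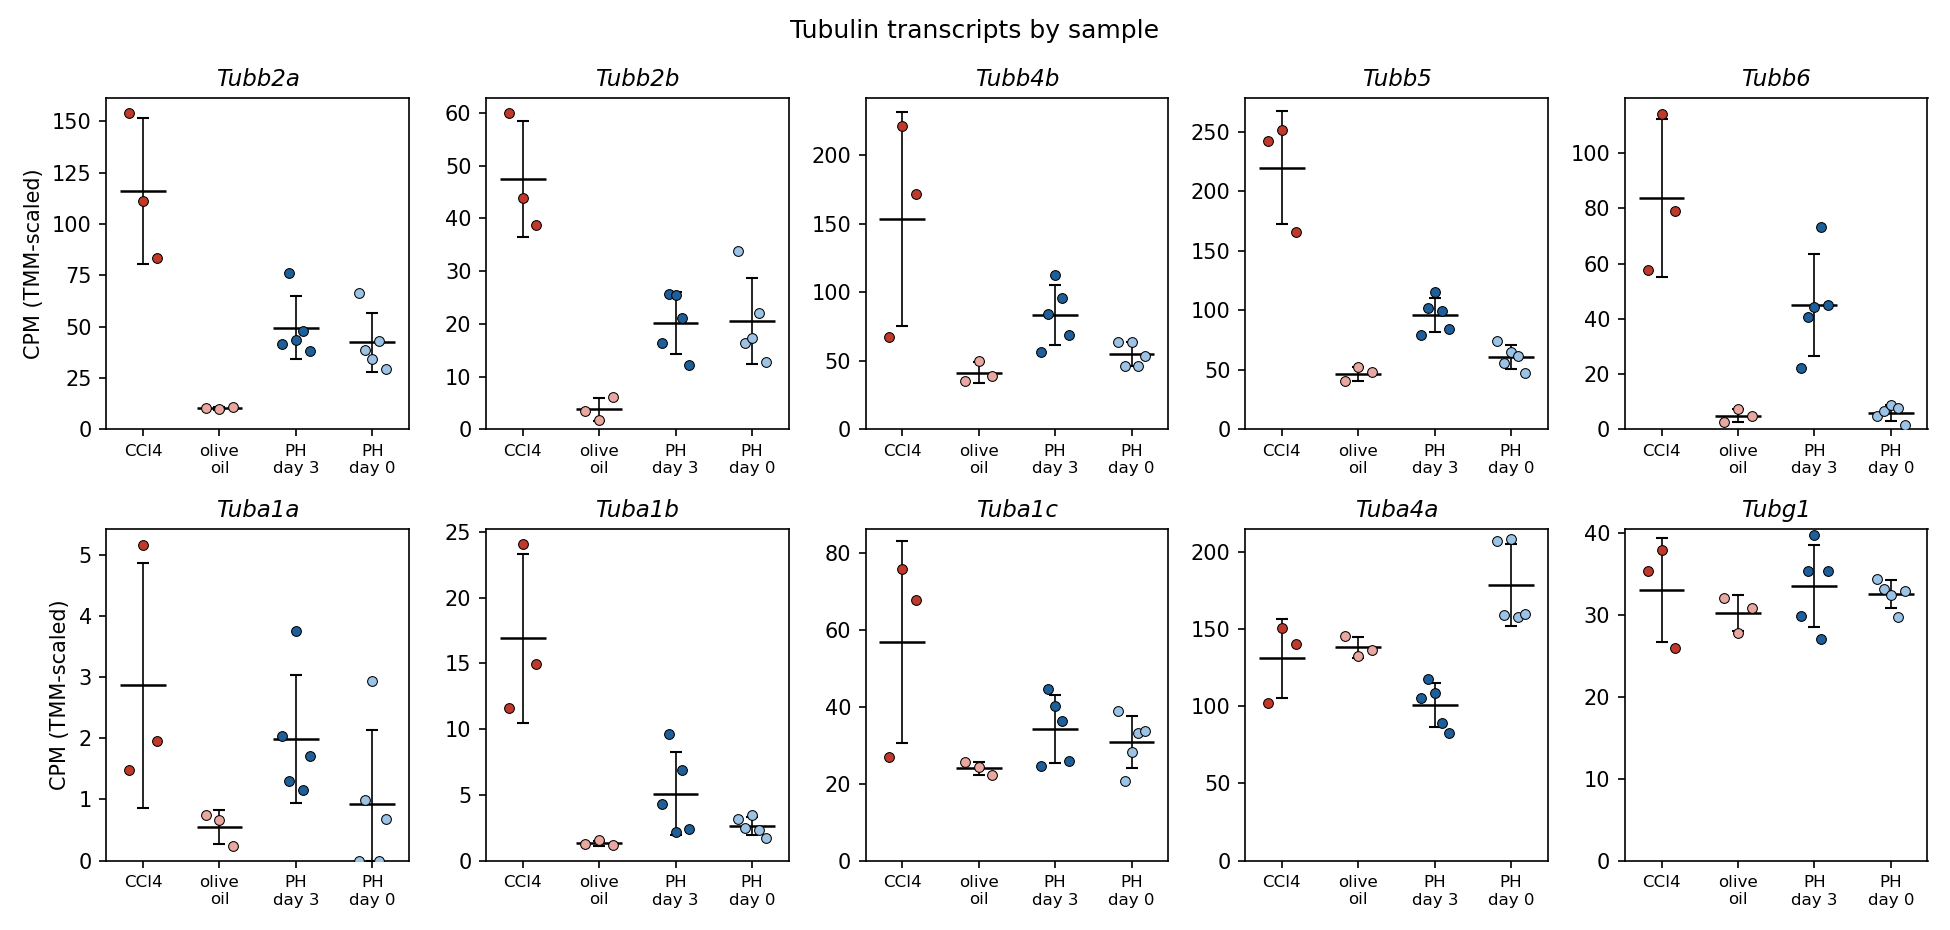
CPM of the 10 genes (y axes, linear from 0, one scale per gene) in each sample of CCl4, olive oil, PH day 3 and PH day 0 livers (x axis), with a horizontal line at the mean and error bars of 1 SD. All 3 CCl4 samples of Tubb2a stand at 83.3 CPM or more, and the olive oil samples at 11.1 CPM or less.

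Tubb6, which encodes a broadly expressed class of beta-tubulin, showed the largest fitted change of the fitted isotypes in both experiments, narrowly so after CCl4. After PH, it had 22.1, 40.5, 44.2, 73.3 and 44.9 CPM in PH day 3 livers, against 4.85, 6.44, 8.79, 7.83 and 1.71 CPM in PH day 0 livers. Every day 3 sample lay above every day 0 sample, with means of 45.0 ± 18.3 CPM in PH day 3 livers and 5.93 ± 2.78 CPM in PH day 0 livers (SD, n = 5 each). The log2 fold change was 2.92 ± 0.39 (SE), with an edgeR adjusted p of 0.00055. After CCl4, Tubb6 had 57.8, 114 and 78.9 CPM in CCl4 livers, against 2.75, 7.24 and 4.94 CPM in olive oil livers. The groups did not overlap, and the fitted log2 fold change was 4.04 ± 0.37. With 1 sample left out it was 3.74 to 4.40, against 3.25 to 4.16 for Tubb2b and 3.29 to 3.86 for Tuba1b. These ranges overlap, so the first place of Tubb6 after CCl4 is not set. Tubb6 (ENSMUSG00000001473) lies on chromosome 18, bases 67390717 to 67402749, plus strand of GRCm38.

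Tubb5 and Tubb4b, 2 widely expressed beta isotypes, rose after PH with smaller fold changes than Tubb6. Tubb5 (ENSMUSG00000001525, chromosome 17, bases 35833921 to 35838306, minus strand) had 79.6, 102, 115, 99.8 and 84.7 CPM in PH day 3 livers, against 74.5, 55.5, 64.7, 61.3 and 46.9 CPM in PH day 0 livers. The 2 groups did not overlap, and the lowest day 3 value lay just above the highest day 0 value. The log2 fold change was 0.67 ± 0.12, with an edgeR adjusted p of 0.000279. In CCl4 livers, Tubb5 had 243, 252 and 166 CPM, against 40.5, 52.2 and 47.8 CPM in olive oil livers, a fitted log2 fold change of 2.21 ± 0.20. All 3 CCl4 values were above all 3 olive oil values.

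Tubb4b (ENSMUSG00000036752, chromosome 2, bases 25222160 to 25224702, minus strand) had 56.5, 84.2, 112, 95.6 and 69.0 CPM in PH day 3 livers, against 63.9, 46.1, 63.9, 46.3 and 53.8 CPM in PH day 0 livers. The groups overlapped, since 1 day 3 sample lay below the 2 highest day 0 samples. The log2 fold change was 0.62 ± 0.17 with an edgeR adjusted p of 0.0182, and under the alternatives the adjusted p reached 0.0499. In CCl4 livers, Tubb4b had 67.5, 221 and 172 CPM, against 35.0, 49.5 and 39.1 CPM in olive oil livers, a fitted log2 fold change of 1.88 ± 0.44. CCl4 replicate 1 was the lowest of its group, but stood above every olive oil sample.

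Tubb2a and Tubb2b, beta isotypes best known from the nervous system, were the genes whose CCl4 values led to the choice of the set. Tubb2a had 154, 111 and 83.3 CPM in CCl4 livers, against 10.3, 9.65 and 11.1 CPM in olive oil livers. The means differed 11.2-fold, with a fitted log2 fold change of 3.47 ± 0.24. Tubb2b had 59.9, 43.8 and 38.8 CPM in CCl4 livers, against 3.50, 1.75 and 6.12 CPM in olive oil livers, a fitted log2 fold change of 3.63 ± 0.36. Neither gene's groups overlapped.

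After PH, Tubb2a had 41.6, 76.1, 43.2, 48.0 and 38.1 CPM in PH day 3 livers, against 66.5, 38.4, 34.1, 43.1 and 29.1 CPM in PH day 0 livers. The groups overlapped, with a log2 fold change of 0.22 ± 0.25 and an edgeR adjusted p of 0.631. Tubb2b had 16.3, 25.7, 25.4, 21.1 and 12.2 CPM in PH day 3 livers, against 33.7, 16.4, 17.3, 22.1 and 12.7 CPM in PH day 0 livers. Its log2 fold change was -0.04 ± 0.25, with an edgeR adjusted p of 0.94, and the sign turned to 0.10 with library size scaling. The fitted response to CCl4 exceeded that to PH by 3.70 ± 0.50 log2 units for Tubb2b and by 3.28 ± 0.42 for Tubb2a, the 2 highest values among the 10 genes. These differences rest on the CCl4 values that led to the choice and carry no test.

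The starting levels of the pair also differed between the experiments. Mean Tubb2a was 10.3 ± 0.712 CPM in olive oil livers (SD, n = 3), which is 0.244 times the 42.2 ± 14.5 CPM of PH day 0 livers (SD, n = 5), and mean Tubb2b was 0.186 times. Neither gene overlapped between these control groups, and the same was true of Tuba1b, at 0.504 times, and Tuba4a, at 0.774 times. Among all 11868 genes of the fit of 16 samples, 5.65% lay lower in every olive oil sample than in every PH day 0 sample. The olive oil values of Tubb2a and Tubb2b were part of the comparison that chose the set, so this share is not read further. By the file headers, the livers of the 2 designs belong to separate experiments, so experiment and control treatment cannot be told apart. Measured against each other in counts, Tubb2a had 2.15 to 2.57 times as many as Tubb2b in CCl4 livers, 1.81 to 5.50 times in olive oil livers, 1.70 to 3.11 times in PH day 3 livers and 1.95 to 2.35 times in PH day 0 livers. The 5.50 came from a library with 44 counts of Tubb2a and 8 of Tubb2b.

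Tuba4a was the 1 gene of the set that fell after PH. Of the alpha isotypes it had the most signal per kb of exon in every group, but divided by windows found in no other gene, Tuba1c led in CCl4 and PH day 3 livers. Tuba4a (ENSMUSG00000026202, chromosome 1, bases 75214228 to 75219865, minus strand) encodes an alpha-tubulin that, unlike those of the Tuba1 genes, is made without a final tyrosine. It had 106, 117, 108, 89.2 and 82.6 CPM in PH day 3 livers, against 207, 159, 208, 158 and 160 CPM in PH day 0 livers. The groups did not overlap, and the log2 fold change was -0.81 ± 0.11, with an edgeR adjusted p of 1.08e-05. In CCl4 livers it had 102, 151 and 140 CPM, against 146, 133 and 136 CPM in olive oil livers. These groups overlapped, the fitted log2 fold change was -0.09 ± 0.17, and with library size scaling it was 0.38.

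Tuba1b and Tuba1c, alpha isotypes used by many dividing cells, were higher in CCl4 than in olive oil livers, and neither passed the test after PH. Tuba1b (ENSMUSG00000023004, chromosome 15, bases 98931425 to 98934565, minus strand) had 11.6, 24.1 and 15.0 CPM in CCl4 livers, against 1.25, 1.53 and 1.18 CPM in olive oil livers, a fitted log2 fold change of 3.64 ± 0.39. The olive oil values rest on 5 to 7 counts per library. After PH it had 4.29, 9.61, 2.19, 6.90 and 2.38 CPM in PH day 3 livers, against 3.15, 2.48, 3.46, 2.30 and 1.71 CPM in PH day 0 livers. The 2 lowest day 3 samples lay within the day 0 range, and the log2 fold change was 0.96 ± 0.40 with an edgeR adjusted p of 0.104.

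Tuba1c (ENSMUSG00000043091, chromosome 15, bases 99029891 to 99038110, plus strand) had 26.9, 75.9 and 67.8 CPM in CCl4 livers, against 25.5, 24.3 and 22.1 CPM in olive oil livers, a fitted log2 fold change of 1.23 ± 0.36. CCl4 replicate 1, which was also the lowest for Tubb4b, stood just above the olive oil samples. After PH the log2 fold change was 0.16 ± 0.18, with an edgeR adjusted p of 0.613, and means of 34.3 ± 8.81 CPM in PH day 3 livers and 30.9 ± 6.78 CPM in PH day 0 livers (SD, n = 5 each). Tuba1a (ENSMUSG00000072235, chromosome 15, bases 98949837 to 98953703, minus strand), best known from neurons, had 0 to 42 counts per library. It reached 1.48, 5.16 and 1.96 CPM in CCl4 livers, against 0.751, 0.658 and 0.235 CPM in olive oil livers. Its values were 1.15 to 3.76 CPM in PH day 3 livers and 0 to 2.93 CPM in PH day 0 livers, and the 2 day 0 libraries without a read allow up to 0.393 and 0.691 CPM.

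Tubg1 (ENSMUSG00000035198, chromosome 11, bases 101119938 to 101126419, plus strand), the gamma-tubulin of the nucleating ring complex, overlapped between groups in both experiments. It averaged 33.1 ± 6.33 CPM in CCl4 livers and 30.2 ± 2.16 CPM in olive oil livers (SD, n = 3 each), a fitted log2 fold change of 0.11 ± 0.18. After PH it averaged 33.5 ± 5.01 CPM in PH day 3 livers and 32.5 ± 1.72 CPM in PH day 0 livers (SD, n = 5 each), with a log2 fold change of 0.05 ± 0.13 and an edgeR adjusted p of 0.848.

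**Figure D3:**
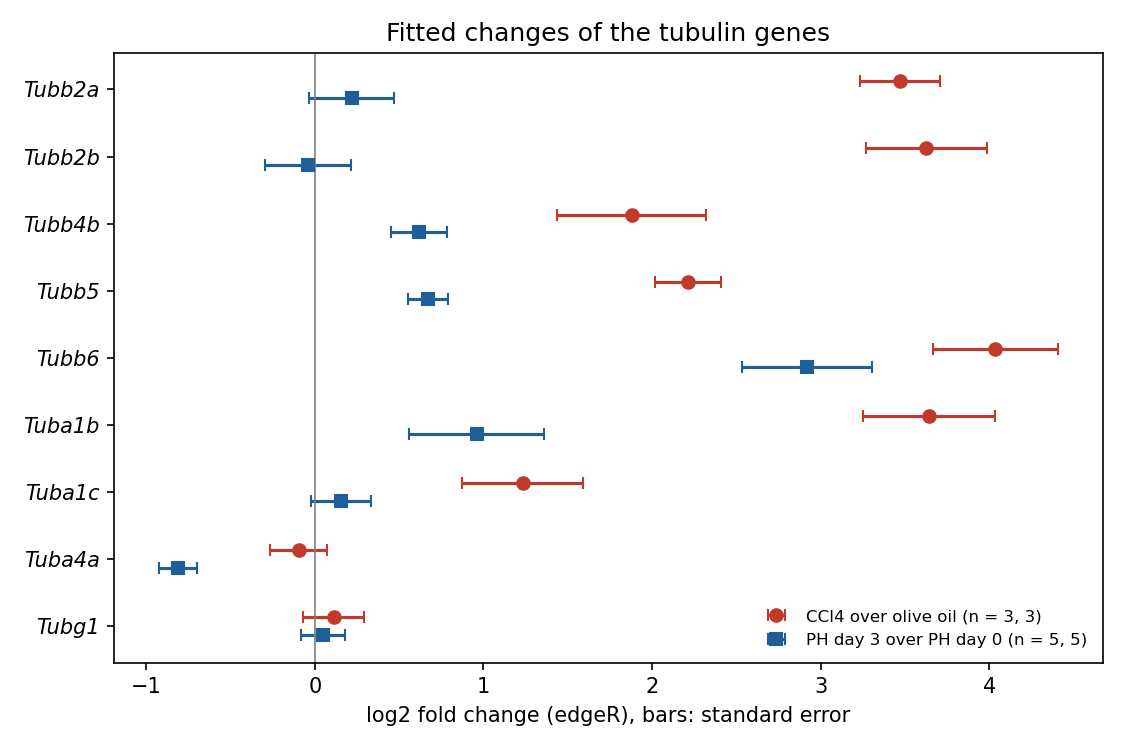
Fitted log2 fold change (x axis, bars are SE) of the 9 genes that passed the count filter (y axis), for CCl4 over olive oil (circles) and PH day 3 over PH day 0 (squares). The CCl4 value is the higher for each of the 9 genes, from -0.09 for Tuba4a to 4.04 for Tubb6.

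In the fit of all 16 samples, where the experiment and the challenge cannot be told apart, the fitted CCl4 response lay above the PH response for 10 of 10 genes and for 51.8% of all genes. The 10 include Tubb2a and Tubb2b, whose CCl4 values chose the set, and Tuba1a and Tubg1, whose differences were smaller than their standard errors. Tuba1b had a difference of 2.71 ± 0.62 log2 units and Tubb5 one of 1.57 ± 0.22. Tubb4b differed by 1.29 ± 0.45, Tubb6 by 1.15 ± 0.64, Tuba1a by 1.16 ± 1.25 and Tuba1c by 1.11 ± 0.41. For Tubg1 the difference was 0.10 ± 0.21, and for Tuba4a it was 0.75 ± 0.20. These differences use the CCl4 values and carry no test.

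Levels between genes were compared as CPM per kb of exon. In olive oil livers Tuba4a was first with 37.3 ± 1.82, then Tubb4b with 19.7 ± 3.59 and Tubb5 with 14.1 ± 1.77 CPM per kb (SD, n = 3). In PH day 0 livers Tuba4a was again first, with 48.2 ± 7.23 CPM per kb, and its lowest sample exceeded the highest of Tubb4b, which averaged 26.2 ± 4.25 (SD, n = 5). The order of Tubb4b, Tubb2a, Tubb5, Tubg1, Tuba1c and Tubb2b below it was not set, since each overlapped with the next. Of the 50-base windows, 50.87% of those of Tubb4b and 1.11% of those of Tuba4a also occurred in another gene. Levels per kb of exon may undercount Tubb4b, so the place of Tuba4a above Tubb4b in both control groups is uncertain.

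In CCl4 livers Tubb4b, Tubb2a and Tubb5 led with 73.5 ± 37.5, 72.1 ± 22.2 and 66.1 ± 14.2 CPM per kb (SD, n = 3), overlapping each other, and Tuba4a came after Tubb6 with 35.4 ± 6.87. In PH day 3 livers Tubb4b led with 40.02 ± 10.5 CPM per kb, and from Tubb4b down to Tubg1 neighbours in the order overlapped. Tuba1a was last in all 4 groups. Summed over the 5 beta isotypes, the level was 280 ± 47.8 CPM per kb in CCl4 livers and 44.7 ± 5.97 in olive oil livers, and 134 ± 27.4 in PH day 3 livers and 83.0 ± 17.8 in PH day 0 livers. Summed over the 4 alpha isotypes it was 70.8 ± 22.1 in CCl4 livers and 48.8 ± 2.41 in olive oil livers, and 46.0 ± 8.01 in PH day 3 livers and 63.7 ± 9.14 in PH day 0 livers. Divided by exon length, the beta sum was thus higher and the alpha sum lower in the mean after PH, and these sums carry no test. With 60.99% to 83.06% of the 50-base windows of the Tuba1 genes shared with other genes, and 1.11% of those of Tuba4a, the alpha sums may undercount the Tuba1 genes. The beta sums may likewise undercount Tubb2a, Tubb2b and Tubb4b, with 49.58%, 39.33% and 50.87% of their windows shared. Sums by unshared windows were not taken, so the sizes of the alpha and beta differences are uncertain.

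The mix of isotypes differed between PH day 3 and PH day 0 livers. As a share of summed beta counts per kb, Tubb6 took 18.8 ± 5.64% in PH day 3 livers and 4.09 ± 1.97% in PH day 0 livers, and Tubb2b took 6.52 ± 1.19% in PH day 3 livers and 10.5 ± 1.96% in PH day 0 livers (SD, n = 5 each). Neither share overlapped between the groups, and each had an adjusted p of 0.0179 (exact permutation test, 2-sided, adjusted over 9 shares), where the smallest unadjusted p that 5 against 5 samples allow is 0.00794. Among the alpha isotypes, Tuba4a took 59.5 ± 5.08% in PH day 3 livers and 75.8 ± 2.99% in PH day 0 livers, and Tuba1c took 32.4 ± 4.31% in PH day 3 livers and 21.3 ± 3.99% in PH day 0 livers, each with an adjusted p of 0.0179 (exact permutation test). Tuba1b took 5.70 ± 2.90% in PH day 3 livers and 2.18 ± 0.40% in PH day 0 livers, with an adjusted p of 0.0429 (exact permutation test). That call was lost when any 1 of the 5 PH day 0 samples was left out, with adjusted p values of 0.0714 to 0.112 (exact permutation tests).

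Thus 5 of 9 shares passed the test, 3 higher and 2 lower, and the shares are tied, since they sum to the whole within the alpha and within the beta genes. The share of Tubb2a was 23.1 ± 5.61% in PH day 3 livers and 31.1 ± 4.54% in PH day 0 livers, which did not pass over all samples (adjusted p = 0.0612, exact permutation test). It passed without PH day 3 replicate 13 (adjusted p = 0.0408) and without PH day 0 replicate 14 (adjusted p = 0.0476, both exact permutation tests). The share of Tuba1a, with a difference of 1.64 points, did not pass over all samples (adjusted p = 0.0595, exact permutation test). It passed without PH day 3 replicate 13 (adjusted p = 0.0408) and without PH day 0 replicate 14 (adjusted p = 0.0429). With counts not divided by length it also passed (adjusted p = 0.0476, all exact permutation tests). The shares of Tubb5, with a difference of -0.23 points, and Tubb4b, with -2.53 points, did not pass. Dividing by windows found in no other gene, an alternative added after seeing the data, moved several shares by more than 1.5 times. Tuba1b then took 16.2 ± 7.35% in PH day 3 livers and 7.78 ± 1.51% in PH day 0 livers, Tubb6 took 10.4 ± 3.38% in PH day 3 livers and 2.08 ± 1.02% in PH day 0 livers, and Tuba4a took 35.7 ± 5.23% in PH day 3 livers and 55.4 ± 3.19% in PH day 0 livers. This ended the calls of Tuba1b and Tuba1c, both at an adjusted p of 0.0857, and the shares of Tubb6, Tubb2b and Tuba4a kept theirs (exact permutation test).

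In CCl4 livers, where shares carry no test, Tubb6 took 16.8 ± 3.63% of the beta counts per kb, against 6.15 ± 2.06% in olive oil livers, and Tubb2a took 26.2 ± 9.23%, against 14.5 ± 2.39%. Tubb4b took 25.9 ± 11.7% in CCl4 livers, against 44.0 ± 3.01% in olive oil livers. Tuba4a took 51.5 ± 7.27% of the alpha counts per kb in CCl4 livers, against 76.5 ± 1.36% in olive oil livers, and Tuba1b took 12.7 ± 2.03%, against 1.45 ± 0.235%. By unshared windows, Tuba4a took 26.4 ± 5.04% in CCl4 livers, against 57.1 ± 2.05% in olive oil livers, and Tuba1b took 31.5 ± 4.46% in CCl4 livers, against 5.25 ± 0.769%, so that Tuba1b stood above Tuba4a in CCl4 livers. CCl4 replicate 1 differed from the other 2 CCl4 samples, with a Tubb2a share of 36.8% where they had 20.6% and 21.1%, and a Tubb4b share of 12.4% as the lowest of the group.

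**Figure D4:**
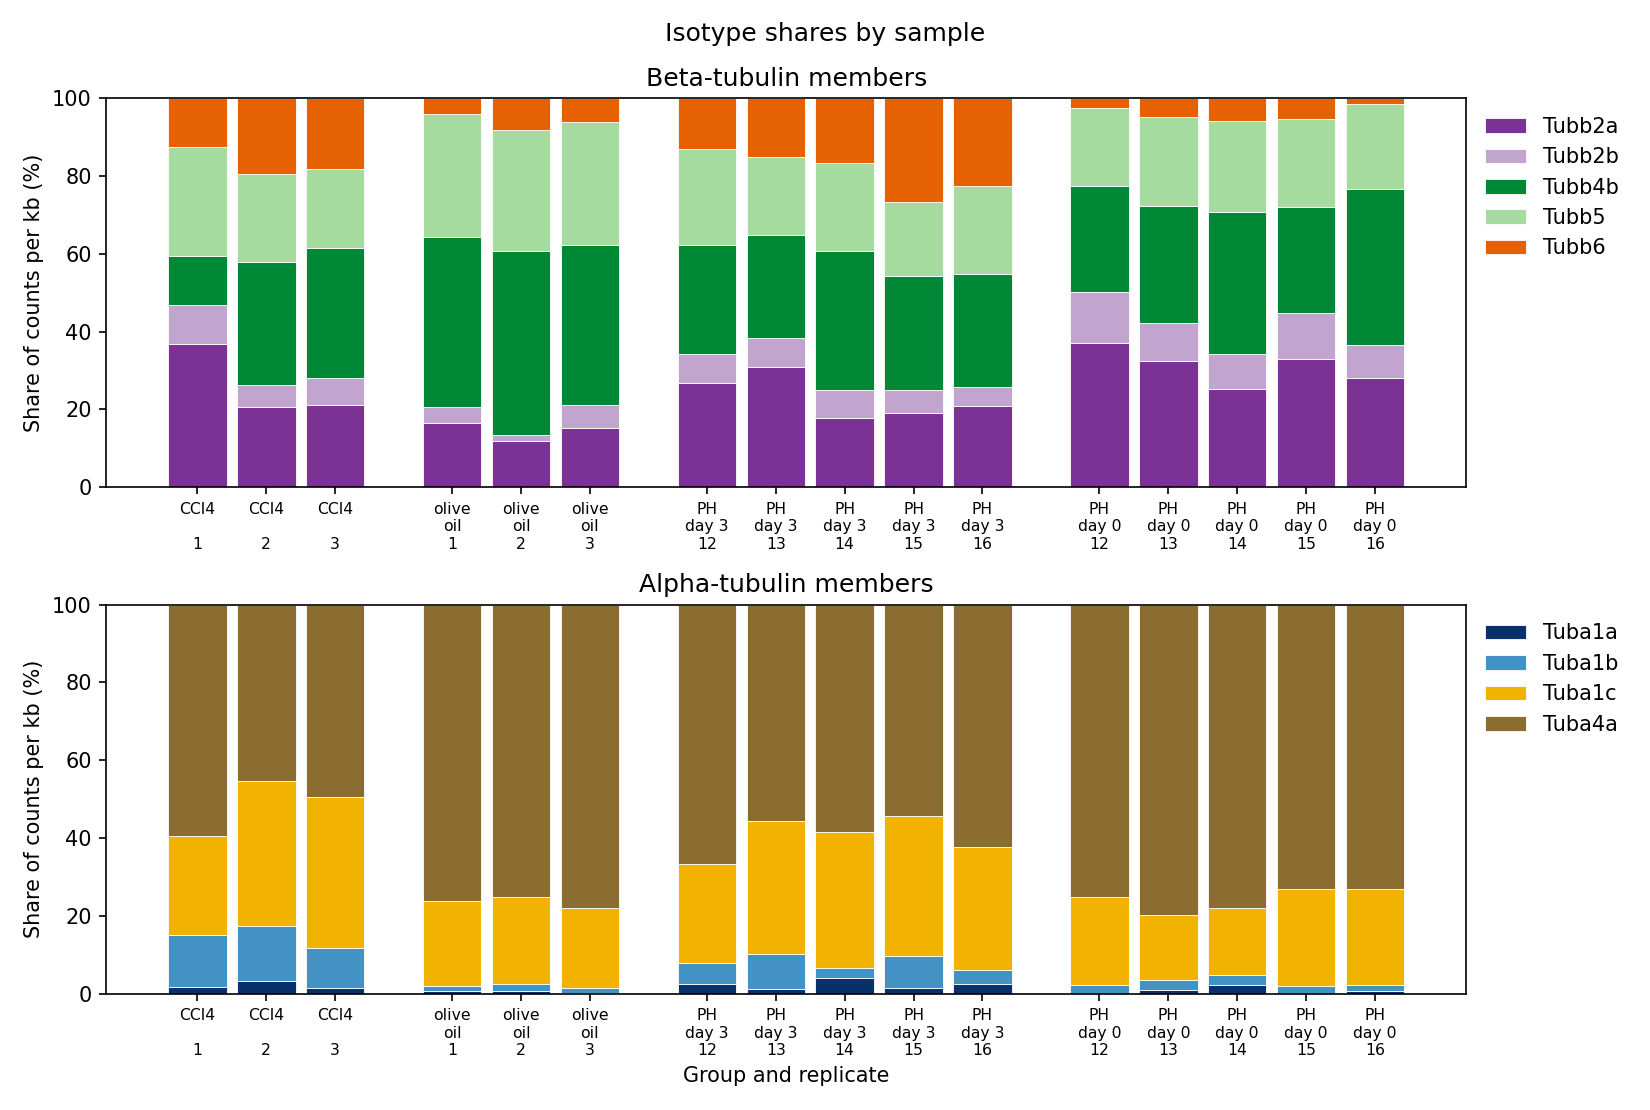
Share of counts per kb (y axis, percent) of each beta isotype (upper panel) and each alpha isotype (lower panel) in every sample, stacked to the whole, with group and replicate on the x axis from CCl4 and olive oil to PH day 3 and PH day 0. The Tubb6 share runs from 13.1% to 26.7% in PH day 3 livers and from 1.51% to 5.97% in PH day 0 livers.

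The profiles over the 16 samples were compared by the root mean square difference of centred log2(CPM + 1) values over 9342 genes, as a description, since all libraries come from the same 4 groups. The gene closest to Tubb2a was Tubb2b, and the reverse also held, at a difference of 0.304, and next to Tubb2a came Chka and Cd93. Tubb6 was closest to Nek2, Birc5 and Kif4, all genes of mitosis, at 0.385 to 0.424, where its own spread was 1.71. Tubb5 was closest to Topbp1, Hat1 and Cotl1, at 0.238 to 0.306, and Tubb4b to Jpt1, Sae1 and Lbh. Tuba1b was closest to Cav2, Pole and Tubb5. Tuba1c was closest to Gsr, Txnrd1 and Tipin, Tuba1a to Bgn, Cnn2 and Tnfrsf21, and Tubg1 to Def8, Mgat1 and Kdelr1. These 3 genes had looser matches for their own spread than Tubb6. The differences were 0.28 to 0.31 with an own spread of 0.51 for Tuba1c, and 0.40 to 0.43 with 0.72 for Tuba1a. For Tubg1, which varied little, they were 0.131 to 0.137 with 0.162. Reads shared between Tubb2a and Tubb2b were not counted for either.

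The marker counts below stand beside 9.73% higher and 8.01% lower of all genes after PH, and 11.3% higher and 11.6% lower after CCl4. Markers of dividing cells were higher in both comparisons. All 8 of 8 rose after PH, with 110 to 269 CPM in sum in PH day 3 livers against 2.48 to 12.0 CPM in PH day 0 livers. All 8 of 8 also rose after CCl4, where the CCl4 livers had sums of 225 to 594 CPM, the olive oil livers had 4.82 to 6.76 CPM, and Bub1 was at 0 in olive oil livers. The count after CCl4 was 6 to 8 with 1 sample left out. Of the 13 stellate cell and myofibroblast markers 8 rose after PH, with sums of 309 to 895 CPM in PH day 3 livers and 162 to 303 CPM in PH day 0 livers, and 4 to 8 rose with 1 sample left out. After CCl4 9 of 13 rose, with sums of 498 to 1214 CPM in CCl4 livers and 179 to 224 CPM in olive oil livers. Of 10 macrophage markers tested after CCl4 5 rose and 1 fell (3 to 6 and 1 to 2 with 1 sample left out), with sums of 308 to 456 CPM in CCl4 livers and 131 to 366 CPM in olive oil livers. Of 7 tested after PH, edgeR called 0, with 0 at an unadjusted p under 0.05.

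Cholangiocyte markers summed to 193 to 313 CPM in CCl4 livers and 76.1 to 124 CPM in olive oil livers, with 1 of 3 tested higher (1 to 2 with 1 sample left out). This was Spp1, which made up most of the sums. It had 219 ± 61.7 CPM in CCl4 livers and 65.8 ± 31.1 CPM in olive oil livers (log2 fold change 1.71 ± 0.35, edgeR adjusted p = 0.0132). Endothelial markers summed to 97.3 to 111 CPM in CCl4 livers and 96.5 to 103 CPM in olive oil livers, and after PH to 109 to 175 CPM in PH day 3 livers and 151 to 184 CPM in PH day 0 livers. Of 7 tested after CCl4, Lyve1 rose by 2.6 ± 0.65 log2 units (edgeR adjusted p = 0.02), and 0 to 2 rose with 1 sample left out. Of 8 tested after PH, 2 fell, Kdr at -0.84 ± 0.14 (edgeR adjusted p = 0.000116) and Clec4g at -0.62 ± 0.16 (edgeR adjusted p = 0.00669). With 1 sample left out, 2 to 3 fell after PH. The 5 red cell markers all fell after CCl4, with sums of 134 to 242 CPM in CCl4 livers and 437 to 515 CPM in olive oil livers. After PH 1 of the 5 fell, Alas2 at -1.0 ± 0.12 log2 units (edgeR adjusted p = 3.06e-06). Neutrophil markers summed to 2.09 to 56.9 CPM in CCl4 livers and 0.25 to 12.5 CPM in olive oil livers, with 0 of 2 tested called by edgeR, DESeq2 or limma-voom and 0 at an unadjusted p under 0.05. The 8 neuron and nerve markers summed to 6.77 to 10.8 CPM in CCl4 livers and 19.3 to 25.9 CPM in olive oil livers, and to 6.90 to 14.0 CPM in PH day 3 livers and 14.3 to 24.8 CPM in PH day 0 livers. Syt1, the 1 tested, had 6.28 ± 2.12 CPM in CCl4 livers and 20.6 ± 3.42 CPM in olive oil livers (log2 fold change -1.71 ± 0.28, edgeR adjusted p = 0.0019). After PH it had 8.05 ± 2.67 CPM in PH day 3 livers and 17.2 ± 3.77 CPM in PH day 0 livers (log2 fold change -1.07 ± 0.23, edgeR adjusted p = 0.00178). Snap25, Elavl3 and Sox10 had 0 counts in every library of all 4 groups, and the neuronal beta-tubulin Tubb3 was at 0 in every olive oil library and at most 1.63 CPM in a CCl4 library. The part of these cell types in the tubulin changes was not tested.

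Of the tubulin genes outside the 10, which the sums and shares leave out, Tuba3a, Tuba3b and Tubal3 had 0 counts in every library, and Tubb1, Tubb3 and Tubb4a did not pass the filter in either comparison. Of the 3 tested after PH, 1 rose, against 9.73% of all genes. This was Tuba8, with 17.6, 6.23, 13.2, 12.9 and 8.84 CPM in PH day 3 livers against 1.84, 1.49, 1.86, 4.15 and 7.88 CPM in PH day 0 livers. Its log2 fold change was 1.89 ± 0.41, with an edgeR adjusted p of 0.00309, although the highest day 0 sample overlapped the lowest day 3 sample. Tubg2 and Tubd1 had log2 fold changes of -0.28 ± 0.32 and -0.23 ± 0.36 after PH, and did not pass. Of the 4 tested after CCl4, which were Tuba8, Tube1, Tubd1 and Tubg2, edgeR called 0, with 0 at an unadjusted p under 0.05 and 0 by DESeq2 or limma-voom, and their values were 0.40 ± 0.53, 0.83 ± 0.56, 0.17 ± 0.42 and 0.17 ± 0.40.

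Tubulin is folded by the chaperonin, with prefoldin and cofactors. Of 14 chaperonin and prefoldin genes, which receive and fold new tubulin, 1 rose and 1 fell after PH, near the shares of 9.73% and 8.01% over all genes. The prefoldin gene Vbp1 rose, with a log2 fold change of 0.71 ± 0.22 and an edgeR adjusted p of 0.0296, and Tcp1, a chaperonin subunit, fell by 0.42 ± 0.10 (adjusted p = 0.00395). The Vbp1 call ended without PH day 3 replicate 12, PH day 0 replicate 12 or PH day 0 replicate 13 (adjusted p = 0.0765 to 0.121). After CCl4 2 of 14 rose, against 11.3% of all genes, with 1 to 5 when 1 sample was left out, and at an unadjusted p under 0.05 5 were higher and 1 lower. Pfdn4, another prefoldin gene, rose by 1.6 ± 0.32 (adjusted p = 0.00608), and Vbp1 by 1.33 ± 0.33 (adjusted p = 0.0177), a call that was lost when CCl4 replicate 2, CCl4 replicate 3, olive oil replicate 1 or olive oil replicate 2 was left out (adjusted p of 0.0602 to 0.0839). Of 7 tubulin folding cofactors, edgeR called 0 in either comparison, and DESeq2 and limma-voom also called 0. At an unadjusted p under 0.05, 1 was lower after PH and 0 after CCl4.

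Among genes that control microtubule growth, 5 were called after PH and 6 after CCl4 in the largest list. Of 19 stabilisers and growing-end proteins tested after PH 5 rose, against 9.73% of all genes. Among them was Tacc2, with 52.3 ± 7.28 CPM in PH day 3 livers and 23.6 ± 5.32 CPM in PH day 0 livers (log2 fold change 1.15 ± 0.15, edgeR adjusted p = 3.94e-06). Tacc3, a spindle protein, had 17.6 ± 7.88 CPM in PH day 3 livers and 2.24 ± 1.66 CPM in PH day 0 livers (log2 fold change 2.95 ± 0.39, adjusted p = 3.78e-05). Of 20 tested after CCl4 6 rose, against 11.3% of all genes, with Tacc3 at 38.5 ± 17.1 CPM in CCl4 livers and 1.603 ± 1.11 CPM in olive oil livers (log2 fold change 4.54 ± 0.49, adjusted p = 0.000572) and Clip2, a growing-end protein, at 2.22 ± 0.43 (adjusted p = 0.00473). With 1 sample left out, the count after CCl4 was 3 to 6.

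Of the destabilisers and severing enzymes, Stmn1, which binds free tubulin dimers, had 3.88 ± 0.711 CPM in PH day 3 livers and 0.412 ± 0.693 CPM in PH day 0 livers (edgeR adjusted p = 0.000581). It was the 1 call of 6 tested, against 9.73% of all genes higher. After CCl4 2 of 8 rose, against 11.3% of all genes. Stmn1 had 4.93 ± 1.28 CPM in CCl4 livers and 0.152 ± 0.132 CPM in olive oil livers (edgeR adjusted p = 0.00116). Fignl1 had 9.37 ± 2.46 CPM in CCl4 livers and 0.156 ± 0.136 CPM in olive oil livers (edgeR adjusted p = 0.000244). The olive oil and PH day 0 values lie near or under the value of 3 counts, so no fold is given. Of the 16 genes of the gamma-tubulin ring complex and augmin, which branches microtubules in the spindle, 6 rose and 1 fell after CCl4, against 11.3% and 11.6% of all genes, with Haus8 at 1.78 ± 0.29 (adjusted p = 0.00207) and Haus6 at 1.74 ± 0.36 (adjusted p = 0.0073). The fall, Mzt2 at -0.90 ± 0.26 (adjusted p = 0.0307), was lost with library size scaling and when any 1 sample other than CCl4 replicate 1 was left out (adjusted p of 0.0513 to 0.285). With 1 sample left out, 2 to 6 of these genes were called higher and 0 to 1 lower. After PH edgeR called 0 of these 16, with 3 higher and 1 lower at an unadjusted p under 0.05, 0 by DESeq2 and 1 higher by limma-voom.

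Of 12 tubulin modifying enzymes 3 fell after CCl4, against 11.6% of all genes, and edgeR called 0 after PH, with 1 lower at an unadjusted p under 0.05, 0 by DESeq2 and 1 lower by limma-voom. Atat1, the acetyltransferase of alpha-tubulin, had 7.70 ± 2.85 CPM in CCl4 livers and 21.1 ± 2.30 CPM in olive oil livers (log2 fold change -1.44 ± 0.27, adjusted p = 0.0042). Sirt2, a deacetylase that acts on tubulin, had -0.67 ± 0.14 (adjusted p = 0.00734), which was lost with library size scaling, at -0.23 and an adjusted p of 0.38. Ttll5, a glutamylase, had -1.11 ± 0.29 (adjusted p = 0.0221), a call lost with library size scaling and when CCl4 replicate 2, olive oil replicate 2 or olive oil replicate 3 was left out (adjusted p of 0.0667 to 0.176). Of 3 autoregulation genes, Ttc5 rose after CCl4 by 1.01 ± 0.30 (adjusted p = 0.0363), a call lost when CCl4 replicate 2, CCl4 replicate 3, olive oil replicate 1 or olive oil replicate 2 was left out (adjusted p of 0.0993 to 0.118). After PH edgeR called 0 of the 3, with 1 lower at an unadjusted p under 0.05, and 0 by DESeq2 and limma-voom.

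For 7 of the 10 genes RefSeq promoters of GRCm38.p6 were at hand, and 250 bases upstream of the start were searched on both strands for the GC box GGGCGG, the CCAAT box CCAAT, the TATA motif TATAAA and the cell cycle homology region TTTGAA. No match overlapped another motif's match. The GC box occurred in 5 of the 7, against 32.74% of 32851 mouse promoters of the same length, and CCAAT in 4 of 7, against 33.85%. TATAAA occurred in 1 of 7, Tubb2a, against 12.37%, and TTTGAA in 1 of 7, Tubb4b, against 15.99%. The Tubb2a promoter, chr13:34078009-34078258 on the minus strand, is shown for the gene of the large CCl4 values, and that of Tubb4b, chr2:25224703-25224952 on the minus strand, for the gene with the most CCAAT boxes (5). Capitals mark the matches, which are a description and not shown to be bound.
Tubb2a: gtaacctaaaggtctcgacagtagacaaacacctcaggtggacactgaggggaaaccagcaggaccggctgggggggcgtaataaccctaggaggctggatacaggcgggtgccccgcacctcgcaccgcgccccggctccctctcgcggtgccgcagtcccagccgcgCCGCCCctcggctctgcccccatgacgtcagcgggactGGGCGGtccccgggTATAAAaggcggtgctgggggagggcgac
Tubb4b: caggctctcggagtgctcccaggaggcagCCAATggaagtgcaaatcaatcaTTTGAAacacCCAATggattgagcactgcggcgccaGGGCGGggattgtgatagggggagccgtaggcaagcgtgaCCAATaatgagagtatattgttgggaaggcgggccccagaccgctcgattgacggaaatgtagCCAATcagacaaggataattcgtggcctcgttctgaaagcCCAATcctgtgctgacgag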

How the data were processed

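The members and the gene lists were chosen with earlier results of these data known, and the CCl4 contrast chose the members. Each of the authors' deposited files holds raw read counts for 1 sample. Per the file headers, reads were counted with featureCounts 1.6.2 on Ensembl release 95 exons summed by gene (build GRCm38), reverse-stranded, without options that count reads of several places or genes. Per the submitters' processing notes, STAR 2.5.1 and Subread were used. Symbols came from GENCODE M21 for 54809 of 54838 identifiers.

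Counts were tested with edgeR 4.0.16 (R 4.3.3; quasi-likelihood F test, robust, TMM factors) on genes kept by filterByExpr at its minima of 10 per sample and 15 in all; p-values were Benjamini-Hochberg adjusted over all genes tested and called under 0.05. The 2 experiments were fitted apart, and their difference in a fit of all 16 samples. Standard errors follow from the fold change and its F statistic. Isotype shares are counts per kb of exon, compared by an exact permutation test. Total counts were 2795909 to 8647503 per sample. Between replicates of a group, chi-square per degree of freedom ran from 5.51 to 72.3 for genes reaching 20 counts between them. No library thus duplicated another of its group, and libraries of different groups were not compared in this way.

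Named genes were the 10 members, the other tubulins that passed the filter, called genes of each list (all where 4 or fewer, otherwise the 2 risen and 2 fallen of smallest adjusted p), and the 3 nearest profiles with mean CPM of at least 5 (those of Tuba4a are not reported here). Alternatives were library size scaling, RLE factors, DESeq2 1.42.0, limma-voom (limma 3.58.1), no filter, a filter of 1 CPM, the replicate number as a block, shares of counts without length, and each sample left out. The use of unshared windows was added after seeing the data. The scripts were tested on simulated data. Figures used matplotlib 3.10.9 under Python 3.11.15, with pandas 2.3.3 and numpy 2.4.6.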

Additional observations from a re-analysis of the deposited data

Results flagged for a closer look

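In 1 of 38 groups of 5 samples tested, a sample stood far from the others. Tubb2a had 76.1 CPM in PH day 3 replicate 13, the highest of that group, and the gap to the nearest sample was 0.738 of the whole range, above the critical value of 0.71. Chance flags about 1 group in 20.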

How the results depend on the processing

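The 9 tubulin genes tested after PH kept their side of the threshold in all 17 alternatives, with 3 called higher and 1 lower each time. Library size scaling shifted the log2 fold changes of all genes, with medians up by 0.45 after CCl4 and 0.14 after PH. It called 1617 genes higher and 432 lower after PH (15.3% and 4.10% of those tested, with 1026 and 845 under TMM). After CCl4 it called 2973 higher and 423 lower (26.2% and 3.73%, with 1279 and 1320 under TMM). Without a filter, 4.88% were lower after PH, over more genes tested. With 1 sample left out, 5.98% to 14.3% of genes were higher and 6.67% to 15.6% lower after CCl4, and 8.24% to 9.47% higher and 6.70% to 7.43% lower after PH. The CCl4 percentages were 6.88% higher and 7.24% lower without CCl4 replicate 2. They were 6.70% and 7.08% without olive oil replicate 1, and 5.98% and 6.67% without olive oil replicate 3. The highest, 14.3% higher and 15.6% lower, came without CCl4 replicate 1 (1677 and 1836 genes). The cause of these shifts was not tested.

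With the replicate block, 0 of the 9 isotype shares passed, since the smallest unadjusted p of 5 pairs is 0.0625, and the block changed no tubulin gene's call. With unshared windows as length, added after seeing the data, 3 shares passed. By exon length, 4 to 7 passed with 1 sample left out. Correlations between PH samples were taken on log2(CPM + 1) values after each gene's group mean was taken off. Same-numbered samples then correlated at -0.051 to 0.121, and 2 of 5 day 0 samples correlated best with their own number. The labels do not say whether a number marks 1 animal, and the numbers were not used as pairs in the results reported. Of the list genes, 9 of 21 called after CCl4 and 7 of 9 after PH were called in every alternative. Low counts limit Tuba1a, with 0 to 42 per library.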
